A study of Mus musculus with 7 samples.

Results

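Smooth muscle cells and myofibroblasts share a set of contractile genes, and 10 of them were followed here: Acta2, Tagln, Myl9, Cnn1, Myh11, Tpm2, Actg2, Des, Lmod1 and Synpo2. They were taken by gene symbol from a raw count table of 55401 genes. No cutoff on their values was used, but earlier results of these data were known when they were chosen. All 10 were found, and all 10 were among the 17465 genes that passed a filter on low counts. Each library came from right lung lobes of a male C57BL/6 mouse of 6 to 8 weeks and 20 to 25 g. Every mouse had been given bleomycin through the trachea, an antibiotic whose toxicity to lung cells is followed by scarring. The BLM group held 4 mice. The BLM+HBO group held 3 mice that also breathed oxygen in a pressure chamber (hyperbaric oxygen, HBO) at 2.5 ATA for 90 min per day over 14 days, starting on day 7. Lungs of both groups were collected on day 21, with 1 library per mouse. The sample records place the BLM mice in a chamber without pressurised oxygen, whereas the methods of the study leave them untreated, and which applied was not settled. The authors left out mice that lost too little weight after bleomycin, so neither group holds such mice. No lung without bleomycin was analysed here, so the values compare injured lungs with and without HBO and give no level before injury.

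In smooth muscle, myosin slides along actin filaments once the regulatory light chain of myosin is phosphorylated. The smooth muscle actins are encoded by Acta2 (α-smooth muscle actin) and Actg2 (γ-smooth muscle actin), the myosin heavy chain by Myh11 and a regulatory light chain by Myl9. Tropomyosin (Tpm2), calponin (Cnn1) and transgelin (Tagln) bind the actin filament, leiomodin (Lmod1) starts new filaments, desmin (Des) forms intermediate filaments and synaptopodin 2 (Synpo2) binds actin. In the injured lung, fibroblasts that become myofibroblasts take up Acta2 and Tagln. Myh11, Cnn1 and Des are used here as genes of the mature muscle of airways and vessels, though Des is not limited to it. Many of these genes are driven by serum response factor, which binds a short sequence called the CArG box with its partner myocardin.

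The libraries held 18157161 to 26365969 counts per mouse. The first component of a principal component analysis carried 37.3% of the variance and placed BLM+HBO 1 at 54.8 and BLM+HBO 3 at 37.8, whereas BLM+HBO 2 lay at -0.996, next to the BLM mice (-47.6 to -6.08). BLM+HBO 2 therefore stood apart from its group, and counts of calls that move by more than 1.5 times without it are given beside the lists. Lung identity was clear from the surfactant gene Sftpc, at 4549 to 16262 CPM in the 7 mice. CPM is the count of a gene scaled to a common library size, here the total count times edgeR's TMM factor.

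Promoter sequence was available in the RefSeq table (GRCm38.p6) for Acta2, Myl9, Cnn1, Tpm2, Des, Lmod1 and Synpo2. The 250 bases before each start site were searched on both strands for the CArG box, for a CArG-like box with 1 G or C among its central bases, and for the MCAT element CATTCC, which binds TEAD factors. Acta2 held 2 CArG-like boxes, 84 to 75 and 34 to 25 bases before its start, and 1 MCAT element. These lie before the RefSeq start of Acta2 but inside the wider gene bounds of the deposited counts, which reach to 34255590. Myl9 held 1 CArG box, 161 to 152 bases before its start, and 1 CArG-like box. Both stretches are shown because these 2 were the only members with promoter sequence that held such boxes in the window. Acta2 is given on the minus strand (chr19:34255388-34255467) and Myl9 on the plus strand (chr2:156775293-156775384), 5′ to 3′ in the direction of transcription, with the boxes in capitals:
Acta2: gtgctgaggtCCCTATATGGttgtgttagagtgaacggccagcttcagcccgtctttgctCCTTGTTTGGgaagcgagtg
Myl9: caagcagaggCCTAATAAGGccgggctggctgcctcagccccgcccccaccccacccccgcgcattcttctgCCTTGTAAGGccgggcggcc
Among the 32851 promoters of the table, 1.47% held a CArG box, 7.24% a CArG-like box and 12.6% an MCAT element in the same window. Lmod1 held 1 MCAT element, and none of these letters occurred in the windows of Cnn1, Tpm2, Des and Synpo2.

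The levels of the 10 genes spanned almost 2 orders of magnitude in BLM lungs. Per kilobase of exon, Acta2 was the most abundant at a mean of 182 CPM per kb (RPKM), followed by Myl9 (101), Des (62.7), Tpm2 (41.4) and Actg2 (27.2). Myh11 (13.1) and Cnn1 (12.8) formed the middle, and Lmod1 (3.63), Synpo2 (2.41) and Tagln (2.26) the lower end. Most exon bases of Tagln overlap another gene and could not be counted, and per kilobase of its other exon bases Tagln stood at 7.04 CPM, above Lmod1 and Synpo2.

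Against BLM, 1 of the 10 contractile genes was called lower in BLM+HBO lungs (Acta2) and 0 were called higher. A call required a fold change above 1.5 together with P below 0.05 before adjustment, the thresholds of the study, in edgeR's quasi-likelihood test. Among all tested genes 2.89% were called lower and 3.40% higher. By edgeR, 0 of the 17465 genes passed a Benjamini-Hochberg adjusted P of 0.05 (1861 had an unadjusted P below 0.05), limma also gave 0 and DESeq2 gave 128. The 10 genes had a median log2 fold change of -0.23, compared with 0.0071 over all tested genes, and 7 of them had a lower and 3 a higher fitted level in BLM+HBO. In 0 of the 10 genes did the groups separate completely. Over all tested genes, 4.72% had every BLM+HBO value below every BLM value and 4.05% every one above.

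**Figure D1:**
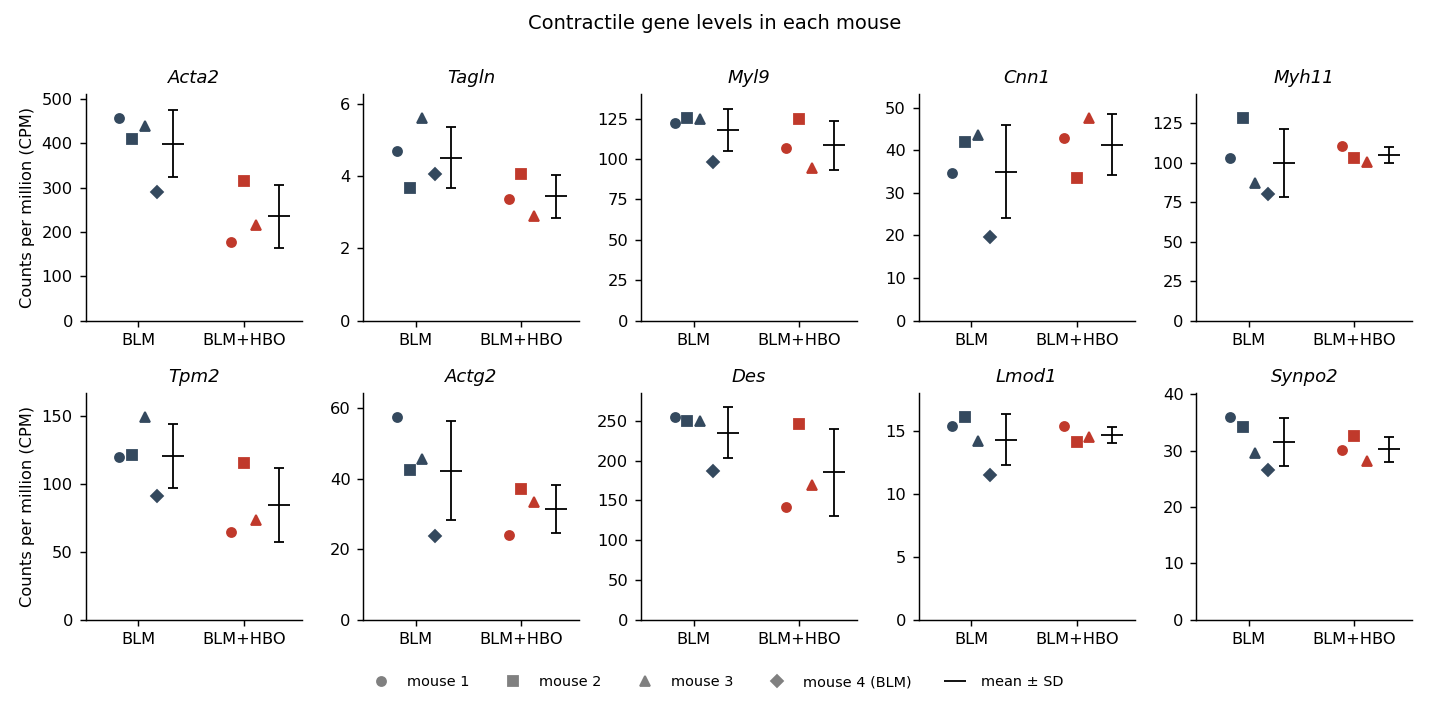
Level of each contractile gene in CPM (vertical axes start at 0 and differ between genes), with 1 point per mouse for BLM (4 mice) and BLM+HBO (3 mice) and the mean ± SD beside them. Acta2 ran from 290.2 to 457 CPM in BLM and from 178 to 314 CPM in BLM+HBO, whereas Myh11 and Lmod1 of the BLM+HBO mice lay inside the BLM range; the groups overlapped in all 10 genes.

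Acta2 (ENSMUSG00000035783, chr19:34241090-34255590, minus strand, GRCm38) encodes the actin by which myofibroblasts are usually recognised. It stood at 457, 410.0, 439 and 290.2 CPM in BLM mice 1 to 4 and at 178, 314 and 215 CPM in BLM+HBO mice 1 to 3. BLM 4 was the low mouse of its group, BLM+HBO 2 lay above it, and the other 2 BLM+HBO mice lay below every BLM mouse. The mean fell from 399 ± 75.2 (SD, n = 4) to 236 ± 70.7 CPM (SD, n = 3). In edgeR's fit this was a 1.69-fold lower level, with a log2 fold change of -0.76 (SE 0.22, 95% confidence interval -1.25 to -0.27), P of 0.0065 and adjusted P of 0.423. Acta2 met the call rule in all 15 alternative fits, with log2 fold changes from -1.02 to -0.59 and adjusted P from 0.0185 to 0.802. The adjusted P was below 0.05 in 2 of them, without BLM+HBO 2 (0.045) and with no filter on low counts (0.0185), and it was 0.0725 by DESeq2. In whole-lobe RNA, fewer cells of a type and less RNA per cell cannot be told apart.

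Tpm2 (chr4:43514711-43523765, minus strand), a tropomyosin that lies along the actin filament, came next in size. Its level was 120.0, 121, 149 and 90.9 CPM in the BLM mice and 64.7, 116 and 73.1 CPM in the BLM+HBO mice. BLM+HBO 1 and 3 lay below every BLM mouse and BLM+HBO 2 within the BLM range, the arrangement also seen for Acta2. The log2 fold change was -0.51 (SE 0.22, 95% confidence interval -1.003 to -0.018) with P of 0.0438 and adjusted P of 0.461. At 1.42-fold it did not reach the fold limit. Over all tested genes, 5.54% were lower with a P below 0.05. Without BLM+HBO 2 the log2 fold change was -0.81 and without BLM 4 it was -0.62, and in both cases Tpm2 met the call rule. Leaving out any of the other 5 mice gave no call, with -0.35 (P of 0.157) without BLM+HBO 1.

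Actg2 (chr6:83512905-83536265, minus strand), the actin of visceral smooth muscle, showed a wide spread among the BLM mice, at 57.4, 42.4, 45.6 and 23.9 CPM. The BLM+HBO mice had 23.9, 37.2 and 33.4 CPM. BLM 4 alone brought the groups to overlap. The log2 fold change was -0.43 (SE 0.27, 95% confidence interval -1.02 to 0.17), with P of 0.143. Without BLM 4, all BLM+HBO values were below all BLM values, and Actg2 met the call rule at a log2 fold change of -0.62, P of 0.0106 and adjusted P of 0.338 by edgeR. Without BLM 1 it was -0.24 (P of 0.367) and without BLM+HBO 1 it was -0.26 (P of 0.382).

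Among the genes of mature smooth muscle, Myh11 (chr16:14194535-14291372, minus strand) stood at 103, 128, 87.1 and 80.2 CPM in BLM and at 111, 103 and 101 CPM in BLM+HBO. All 3 BLM+HBO mice lay inside the BLM range. BLM mice averaged 99.8 ± 21.4 CPM (SD, n = 4), and BLM+HBO mice averaged 105 ± 5.12 CPM (SD, n = 3). The log2 fold change was 0.073 (SE 0.16, P of 0.652), and its 95% confidence interval of -0.28 to 0.42 left out a fall as large as the fitted value for Acta2. The small difference took the other sign without BLM 4 (-0.018) and with a replicate block (-0.0012).

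Cnn1 (chr9:22099216-22109630, plus strand), which encodes calponin, was the member with the highest fitted value in BLM+HBO. It measured 34.7, 41.8, 43.6 and 19.6 CPM in BLM and 42.8, 33.5 and 47.5 CPM in BLM+HBO. BLM 4 lay far below the rest, and the other mice of both groups ran together. The log2 fold change was 0.24 (SE 0.25, 95% confidence interval -0.32 to 0.80) with P of 0.355. Its size rested on BLM 4: without that mouse it was 0.045. It was 0.12 without BLM+HBO 3, 0.37 without BLM 3 or BLM+HBO 2, and 0.036 with the replicate block.

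Des (chr1:75360329-75368579, plus strand), the desmin gene, was even in 3 BLM mice at 255, 249.5 and 250.4 CPM and lower in BLM 4 at 187 CPM. The BLM+HBO mice had 141, 247 and 169 CPM. As for Acta2 and Tpm2, BLM+HBO 1 and 3 lay below all BLM mice and BLM+HBO 2 did not. The log2 fold change was -0.34 (SE 0.19, 95% confidence interval -0.78 to 0.092) with P of 0.109. Without BLM+HBO 2 it was -0.60 with P of 0.00482 and adjusted P of 0.109 by edgeR, and Des met the call rule. Without BLM+HBO 1 it was -0.18 with P of 0.362. Desmin is also a gene of heart muscle, and genes of heart muscle were higher in the BLM+HBO libraries, with the values given below.

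Lmod1 (chr1:135324807-135368065, plus strand) had 11.5 to 16.1 CPM in BLM and 14.1 to 15.4 CPM in BLM+HBO, with a log2 fold change of 0.036 (SE 0.15, P of 0.820). Synpo2 (chr3:123076519-123236149, minus strand) had 26.5 to 35.9 CPM in BLM and 28.1 to 32.5 CPM in BLM+HBO, with a log2 fold change of -0.061 (SE 0.13, P of 0.658). The BLM+HBO mice of both genes lay inside the BLM range. Myl9 (chr2:156775420-156781658, plus strand), the light chain whose phosphorylation starts contraction, had 122, 125, 125 and 98.4 CPM in BLM and 107, 124 and 94.2 CPM in BLM+HBO. Its log2 fold change was -0.12 (SE 0.13, 95% confidence interval -0.41 to 0.18) with P of 0.396. Myl9 was not called. Whether the boxes printed above bear on the values of Acta2 or Myl9 was not tested.

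**Figure D2:**
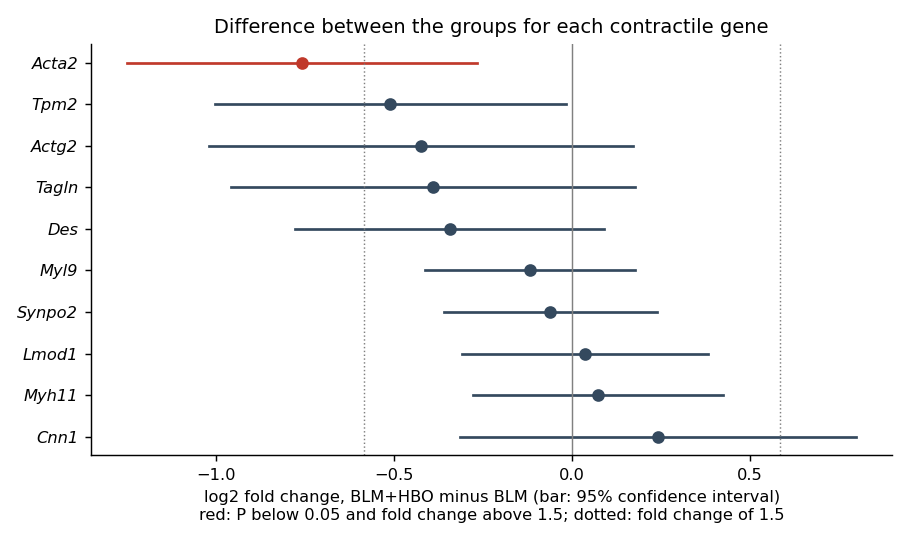
Log2 fold change (BLM+HBO minus BLM) of the 10 contractile genes from edgeR with its 95% confidence interval; the dotted lines mark a fold change of 1.5 and red marks a gene past both limits. Acta2 (-0.76) is the only gene in red, the interval of Tpm2 ends just below 0, and the other 8 intervals include 0.

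Tagln, the gene of transgelin (chr9:45929619-45936058, minus strand), was counted at a very low level for a smooth muscle gene, between 63 and 102 reads per mouse. In CPM it stood at 4.68, 3.66, 5.60 and 4.05 in BLM and at 3.35, 4.07 and 2.89 in BLM+HBO. The groups overlapped, and the log2 fold change was -0.39 (SE 0.25, 95% confidence interval -0.96 to 0.18) with P of 0.156. Of the 1988 exon bases of Tagln, 1349 (67.9%) also belonged to exons of another gene, by the exon coordinates deposited with the counts. These were 1241 bases of Gm48529 (chr9:45930112-45933738), which runs on the plus strand opposite to Tagln, and 108 bases of Pcsk7. The deposited counts were made without strand and without reads that overlap several genes, so reads in those bases do not count for Tagln, and only 639 of its exon bases could be counted without overlap. Among all tested genes 0.452% shared as large a part of their exons. The overlap of Des with another gene covered 5.86% of its exon bases, and the other 8 members had none. How far the overlap set the level of Tagln was not tested, and its values are best read as those of a gene counted in part.

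BLM 4 and BLM+HBO 2 shaped most of these comparisons. BLM 4 was the lowest BLM mouse in 9 of the 10 genes and the lowest of all 7 mice in 5, and BLM+HBO 2 was the highest BLM+HBO mouse in 7. BLM+HBO 1 lay below every BLM mouse in 4 genes, BLM+HBO 3 in 5 and BLM+HBO 2 in 0. Without BLM 4 the calls were Acta2, Tpm2 and Actg2, all lower, against 3.11% of all genes called lower. In that comparison Acta2, Tpm2, Actg2 and Des separated completely between the groups, as 16.3% of all genes did. Without BLM+HBO 2 the calls were Acta2, Tpm2 and Des, all lower, against 5.41% of all genes, and Acta2, Tagln, Tpm2 and Des separated, against 25.1% of all genes. Leaving out any of the other 5 mice gave Acta2 as the only member called.

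To set Acta2 and Tagln against the genes of mature smooth muscle, log2 CPM values were subtracted within each mouse, which removes any difference in library scaling. The mean of Acta2 and Tagln minus the mean of Myh11, Cnn1 and Des was -1.06, -1.49, -0.98 and -0.94 in the BLM mice and -1.82, -1.39 and -1.88 in the BLM+HBO mice. BLM 2 lay below BLM+HBO 2, so the groups overlapped. The group means were -1.12 ± 0.25 (SD, n = 4) and -1.70 ± 0.27 (SD, n = 3), a difference of -0.58. No test was made of such differences, since their genes were chosen.

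Acta2 alone against the same 3 genes, a comparison added after the data were seen because of the overlap of Tagln, gave no overlap. The values were 2.23, 1.89, 2.16 and 2.12 in BLM and 1.02, 1.73 and 1.21 in BLM+HBO, with a difference of -0.78 between the group means. Against Myh11, Acta2 stood at 2.001 ± 0.29 on the log2 scale in BLM (SD, n = 4) and at 1.13 ± 0.46 in BLM+HBO (SD, n = 3), a difference of -0.87. Against Cnn1 the difference was -1.07 and against Lmod1 -0.83. In each case all 3 BLM+HBO mice lay below all 4 BLM mice. BLM+HBO 2, whose Acta2 level lay inside the BLM range, was thus below all BLM mice once Acta2 was read against these genes of the same library, though only by a small step against Cnn1 (3.23 against 3.29 in BLM 2) and against Myh11 (1.604 against 1.674 in BLM 2). These ratios share Acta2 and are not separate results. Read against each of the 17464 other tested genes in the same way, Acta2 had all BLM+HBO mice below all BLM mice for 21.9% of them, and for 7 of the other 9 members.

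Against Des, Acta2 gave the tightest values. The log2 difference was 0.84, 0.72, 0.81 and 0.63 in BLM and 0.33, 0.35 and 0.35 in BLM+HBO, which amounts to -0.41 between the group means with an SD of 0.012 in BLM+HBO. The 3 BLM+HBO mice, which differed widely in the level of either gene, held almost the same ratio. Against Actg2, the other smooth muscle actin, the difference was -0.40 and the groups overlapped.

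Tagln gave no such separation. Against Myh11 its difference between the group means was -0.47, against Cnn1 -0.67 and against Des -0.0034, and the groups overlapped in all 3. Cnn1 against Myh11 differed by 0.20 and Des against Myh11 by -0.47, both with overlap. Among the 3 mature genes, Des had a fitted value below 0 and Myh11 and Cnn1 had values above 0, none of them called.

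**Figure D3:**
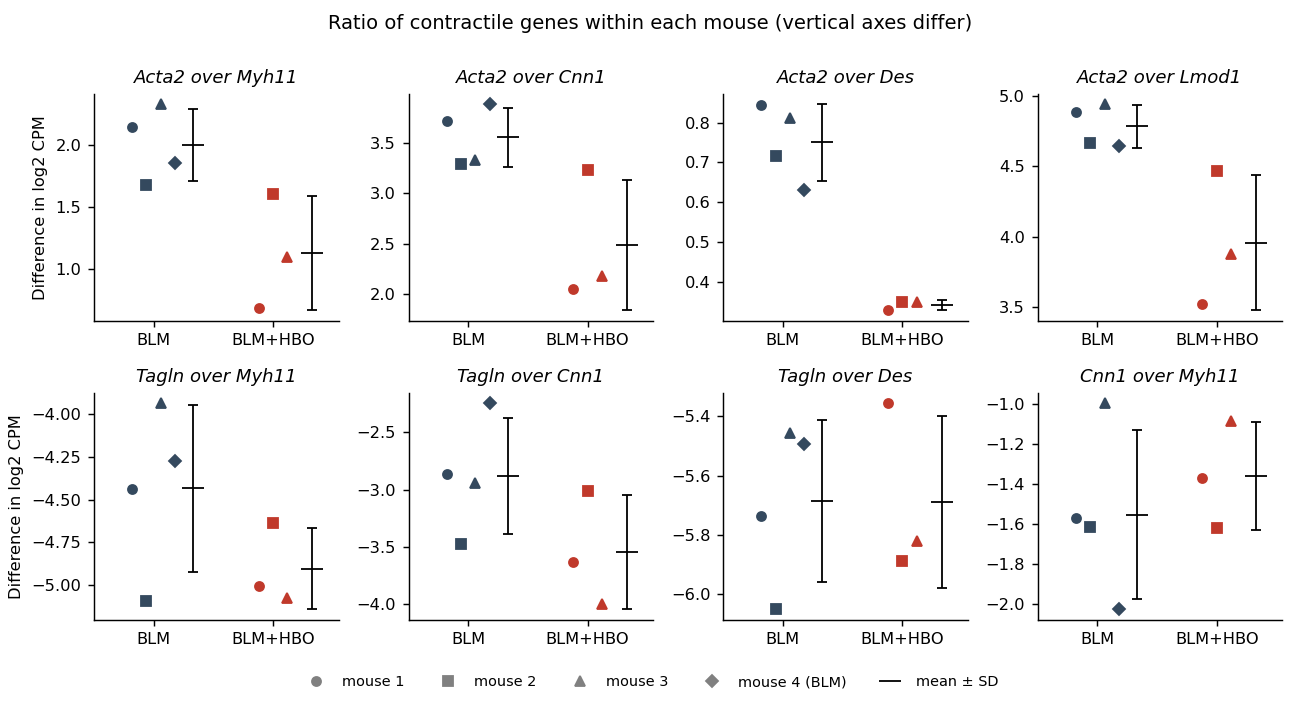
Difference in log2 CPM between 2 contractile genes in the same library, with 1 point per mouse and the mean ± SD of each group (axes differ and do not start at 0). The upper row shows Acta2 against 4 genes, where all 3 BLM+HBO mice lie below all 4 BLM mice, and the lower row shows Tagln against 3 genes and Cnn1 against Myh11, where the groups overlap.

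The actins differed among themselves. Of 6 actin genes, Acta2 and Acta1 were called lower, Actc1 was called higher and Actg2, Actb and Actg1 were not called. Among all tested genes 2.89% were called lower and 3.40% higher. Actc1, the actin of heart muscle, rose from 24.7 ± 8.22 CPM (SD, n = 4) to 82.1 ± 32.9 CPM (SD, n = 3), with a log2 fold change of 1.73 (SE 0.33), P of 0.000401 and adjusted P of 0.423 in edgeR. Acta1, the actin of skeletal muscle, was near 1 CPM and gave -1.01 (P of 0.0252), a call that was lost without BLM 4, BLM+HBO 1 or BLM+HBO 3, with the replicate block and with no filter on low counts. The actins of non-muscle cells had fitted values of -0.21 (Actb) and -0.12 (Actg1). Of the RNA of the 4 muscle actins, taken per length, Acta2 made up 82.1, 80.3, 80.8 and 79.6% in BLM mice and 48.0, 66.2 and 64.9% in BLM+HBO mice. The share of Actc1 was 3.01, 7.73, 7.14 and 10.7% in BLM and 42.7, 22.6 and 20.8% in BLM+HBO. The share of Acta2 was thus near constant in BLM lungs and lower in every BLM+HBO lung. Both the lower level of Acta2 and the higher level of Actc1 enter it, so its separation is not one of Acta2 alone. In 2 measures that hold no Actc1, the level of Acta2 and Acta2 against Actg2 (-0.40 on the log2 scale), the groups overlapped. In the longest coding transcripts of Acta2 and Actg2, no stretch of 150 bases, the read length, also occurred in another gene.

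**Figure D4:**
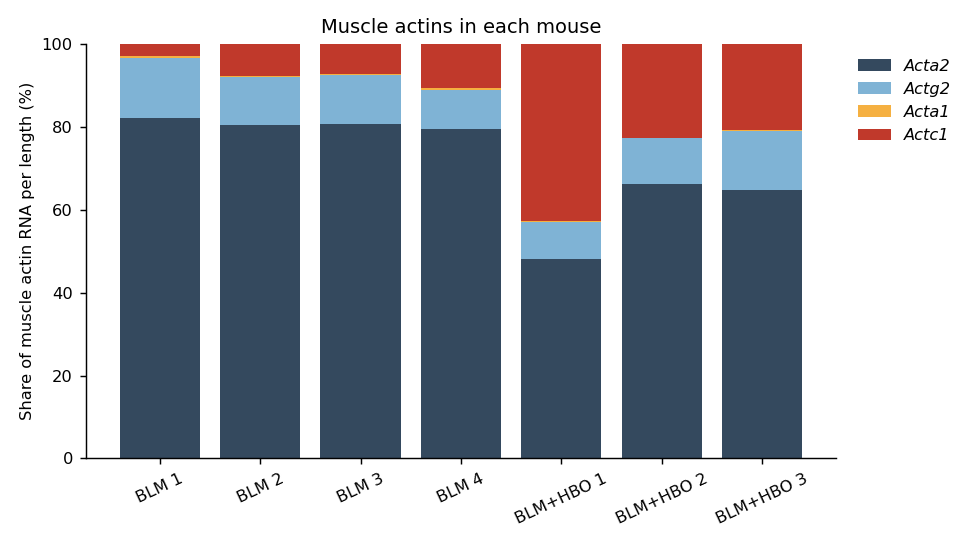
Share of each muscle actin gene in the summed muscle actin RNA per length (percent), with 1 stacked bar per mouse. Acta2 makes up 79.6 to 82.1% in the 4 BLM mice and 48.0 to 66.2% in the 3 BLM+HBO mice, where Actc1 takes 20.8 to 42.7%.

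Paralogs of the members in other cells gave 2 calls among 18 tested genes, both higher: Lmod2, the leiomodin of heart muscle (log2 fold change of 2.22, P of 0.0111), and Synpo2l, a relative of Synpo2 in striated muscle (1.33, P of 0.00574). Among all tested genes 3.40% were called higher. Neither Lmod1 nor Synpo2 was called. Lmod2 was not called without BLM+HBO 1 (P of 0.103) or by limma (0.0572). Both genes were highest in BLM+HBO 1 and 2, the mice with the most heart muscle RNA, described below.

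Of 25 other genes of the contractile apparatus, 1 was called lower and 1 higher, against 2.89% and 3.40% of all tested genes. The median log2 fold change of the 25 was -0.17. Without BLM+HBO 2, 4 were called lower and 2 higher, against 5.41% and 5.29% of all genes in that comparison. Cald1, whose product caldesmon binds actin and tropomyosin, ran from 335 to 520.2 CPM in BLM and from 180 to 374 CPM in BLM+HBO, with a log2 fold change of -0.63 (SE 0.25) and P of 0.0316, and it was not called without BLM 1, BLM+HBO 1 or BLM+HBO 3. The gene called higher was Ldb3, a Z-disc gene of striated muscle that is also in the heart muscle list. In 2 of the 25 every BLM+HBO value lay above every BLM value, as in 4.05% of all tested genes. Fhl1 ran from 554 to 614 CPM in BLM and from 615 to 686 CPM in BLM+HBO, with a log2 fold change of 0.18. The integrin gene Itga8 ran from 69.1 to 104 CPM in BLM and from 113 to 162 CPM in BLM+HBO. Its log2 fold change of 0.55 was short of the fold limit. Actn1, an actin crosslinker, gave -0.52 with P of 0.0330, also short of it.

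Of 22 genes that signal to contraction, among them kinases, ion channels and receptors, 0 were called in either direction by edgeR, and in 0 was P below 0.05 before adjustment. Leaving out BLM+HBO 2 gave 1 call in each direction, where 5.41% of all genes were called lower and 5.29% higher. Also, 1 gene was called higher by DESeq2, with no filter on low counts, and without BLM 2 or BLM+HBO 3. The median log2 fold change was -0.016. The smallest P belonged to Pde5a, which breaks down cyclic GMP (0.30, P of 0.0530), and to the ATP receptor gene P2rx1 (0.90, P of 0.0565). From the list of the contractile apparatus, Mylk, the kinase that phosphorylates the light chain, averaged 261 ± 40.5 CPM (SD, n = 4) in BLM mice against 264 ± 34.1 CPM (SD, n = 3) after HBO, with a log2 fold change of 0.016. Ppp1r14a, which inhibits the opposing phosphatase, gave 0.13.

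Among 20 regulators of these genes, 3 were called lower and 0 higher, against 2.89% and 3.40% of all tested genes. Myocd (myocardin), the muscle partner of serum response factor, was low throughout at 1.26 to 3.08 CPM in BLM and 0.909 to 1.31 CPM in BLM+HBO, with a log2 fold change of -0.94 (SE 0.39) and P of 0.0359. Prrx1, a transcription factor of mesenchymal cells, gave -0.74 (P of 0.0331), and Heyl, a target of Notch signalling, gave -0.63 (P of 0.0358). Srf itself was not called (-0.10, P of 0.531), nor were Mrtfa (-0.091) and Mrtfb (-0.26), the partners that respond to actin. The 3 calls were lost when BLM 1, BLM 2 or BLM+HBO 1 was left out, and 1 gene was called without BLM+HBO 3.

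Genes of matrix-producing myofibroblasts had the lowest median of the lists. Of 21, 13 were called lower and 0 higher, against 2.89% and 3.40% of all tested genes. All 21 had a lower fitted level, and their median log2 fold change was -1.03. Their summed level was 16500 to 25298 CPM in BLM and 4342, 16804 and 7649 CPM in BLM+HBO 1 to 3, so that BLM+HBO 2 lay inside the BLM range here as it did for Acta2. Col1a1, the type I collagen gene, had a log2 fold change of -1.20 (SE 0.47, P of 0.0300), and Acta2 read against Col1a1 in the same mouse differed by 0.72 between the groups, with overlap. Lox, which crosslinks collagen, gave -1.37 (P of 0.0135). The count was not stable. Leaving out BLM+HBO 3 left 2 calls, leaving out BLM 1 left 3 and leaving out BLM+HBO 1 left 6. Leaving out BLM 2 or using the robust option left 8, and leaving out BLM+HBO 2 gave 17. With a mouse left out, 1.76 to 5.41% of all genes were called lower. The part of these cells in the difference of Acta2 was not tested.

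The 14 pericyte genes mark cells around capillaries that can express Acta2, which was not measured by cell type here. These genes gave 0 calls by edgeR, 1 gene with an unadjusted P below 0.05 and a median log2 fold change of -0.27. Leaving out BLM+HBO 2 gave 3 calls, all lower, where 5.41% of all genes were called lower and 5.29% higher. Their summed level was 1610 to 1885 CPM in BLM and 1113, 1766 and 1434 CPM in BLM+HBO 1 to 3. BLM+HBO 1 and 3 were thus below all BLM mice, as they were for Acta2, Tpm2 and Des. The 7 genes of alveolar duct and airway muscle gave 0 calls (1 with an unadjusted P below 0.05), with a median of -0.044, and 1 in each direction when BLM+HBO 2 was left out. Among 12 genes of alveolar fibroblasts, 1 was called lower and 4 higher, against 2.89% and 3.40% of all tested genes.

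Heart muscle genes formed the other shift that touches the contractile genes. Of 26 tested, 23 were called higher and 0 lower, against 3.40% and 2.89% of all tested genes. Their median log2 fold change was 1.805. Leaving out BLM+HBO 1 left 15 calls, against 1.93% of all genes called higher. The summed level of the heart muscle genes was 109, 202, 163 and 268 CPM in BLM. It was 984, 749 and 232 CPM in BLM+HBO 1 to 3, so the groups overlapped. Myh6, the heart myosin, ran from 12.3 to 34.9 CPM in BLM and from 34.5 to 232 CPM in BLM+HBO. BLM+HBO 3, whose heart muscle sum lay inside the BLM range, had 215 CPM of Acta2 and 169 CPM of Des, between the other 2 mice of its group. The part of heart muscle RNA in the level of Des was not tested. Skeletal muscle genes were near 0 (summed level 8.09 to 12.7 CPM), and of 6 tested only Acta1 was called.

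**Figure D5:**
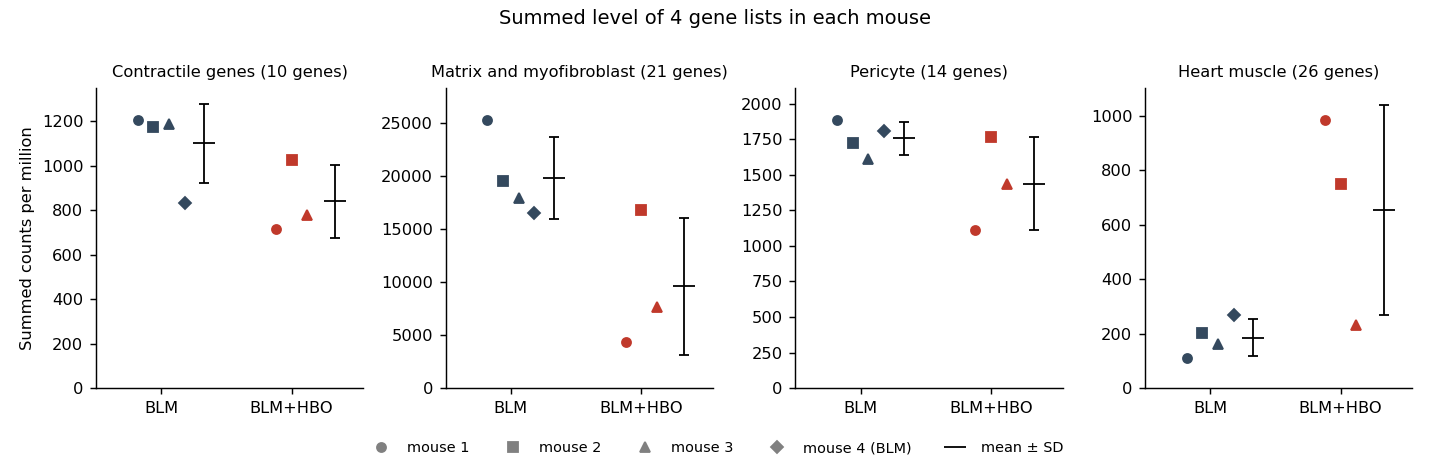
Summed CPM of the 10 contractile genes, 21 matrix and myofibroblast genes, 14 pericyte genes and 26 heart muscle genes, with 1 point per mouse and the mean ± SD of each group (axes start at 0 and differ). BLM+HBO 1 and 3 have the lowest contractile, matrix and pericyte sums, BLM+HBO 2 lies near or within the BLM mice in these 3, and the heart sum is highest in BLM+HBO 1 (984) and 2 (749).

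Calls in the lists for the other cells of the lung stand against 2.89% of all tested genes called lower and 3.40% higher. Of 10 genes each, endothelium gave 0 calls and alveolar epithelium 1 higher. Airway epithelium and leukocytes each gave 1 lower and 2 higher. The unadjusted P by edgeR was below 0.05 for 1 endothelial, 3 airway, 1 alveolar epithelial and 5 leukocyte genes. In 3 leukocyte genes and 1 endothelial gene every BLM+HBO value lay below every BLM value, as in 4.72% of all genes. Of 6 mesothelial genes, 2 were called lower (Msln and Wt1), and all 6 had a lower fitted level, with a median log2 fold change of -0.54. Fitted levels were higher for 9 of the 10 endothelial and 9 of the 10 alveolar epithelial genes. Apart from endothelium, with 0 calls whichever mouse was left out, these small counts and that of alveolar fibroblasts changed with the mouse left out, and without BLM+HBO 3 the airway, alveolar epithelial and mesothelial lists gave 0 calls. Without BLM+HBO 2, leukocytes gave 4 lower and 3 higher, alveolar epithelium 3 higher, airway epithelium 2 lower and 3 higher, mesothelium 3 lower and alveolar fibroblasts 2 lower and 5 higher. Of all genes, 5.41% were then called lower and 5.29% higher.

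Genes with a pattern like that of Acta2 or Myh11 were sought over the 7 mice among 10937 genes, by the root mean square of the difference in log2 CPM after each gene was centred on its own mean. Nearest to Acta2 were 1110038B12Rik (0.0857), Ecm1 (0.0993), Lgmn (0.116), Basp1 (0.117) and Trem2 (0.124), against a median of 0.505. The nearest other member was Tpm2 at 0.162. Ecm1 had 332, 265, 340 and 219 CPM in BLM and 133, 212 and 170 CPM in BLM+HBO. Lgmn had 619, 564, 607 and 489 CPM in BLM and 265, 425 and 281 CPM in BLM+HBO. Trem2 had 103, 81.6, 107 and 72.9 CPM in BLM and 45.5, 73.9 and 45.5 CPM in BLM+HBO. Like Acta2, all 5 of the nearest genes outside the members were lowest in BLM 4 among BLM mice. All 5 were also highest in BLM+HBO 2 among the treated mice. Both orders follow from choosing genes by their likeness to Acta2 over these 7 mice. Nearest to Myh11 were Ndrg2 (0.0713), C330018D20Rik (0.0803), Sult1a1 (0.0817), Polr3f (0.0849) and Aldh6a1 (0.0913), against a median of 0.271, and the nearest member was Lmod1 at 0.108. The 5 genes nearest to Acta2 were all called lower, which follows from the way they were chosen, and of the 5 nearest to Myh11 0 were called.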

How the data were processed

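Right lung lobes of 4 BLM and 3 BLM+HBO mice were sequenced (NEBNext Ultra, paired ends on an Illumina NovaSeq). The authors aligned the trimmed reads to GRCm38 with HISAT2 2.2.0 and counted them with featureCounts (2.2.0 in the submitters' processing notes) at default settings, which ignore strand and drop multi-mapping reads and reads over more than 1 gene. The deposited values were raw counts per gene, without normalization. The annotation release is not given in the sources used here; GENCODE vM21 gave symbols to 55141 of 55401 genes.

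Low counts were removed with filterByExpr (10 as minimum count and 15 as minimum total), and the rest were normalized by TMM and tested with edgeR 4.0.16 (quasi-likelihood, no robust option) under R 4.3.3. P-values were adjusted over all 17465 tested genes. Log2 CPM used a prior count of 2. DESeq2 1.42.0 and limma 3.58.1 were alternatives, beside other factors, other filters, the robust option, a replicate block, other thresholds and leaving out each mouse. Libraries of 1 group differed by more than sampling noise, so each mouse counted as 1 replicate; p-values cover the spread between these mice. Depth was 18157161 to 26365969 counts per mouse, and Tagln had the fewest reads of the members (63 to 102). Exon overlap was computed from the exon coordinates deposited with the counts, and shared sequence from GENCODE vM21 transcripts.

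The 10 genes, the other lists and the alternatives were chosen with earlier results of these data known. Named genes were the members, up to 6 called genes and 4 more by smallest P in each list, the actins, the paralogs, named regulators and the 5 genes nearest to Acta2 and to Myh11.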

Additional observations from a re-analysis of the deposited data

Results flagged for a closer look

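In 10 contractile genes and 2 ratios the 4 BLM mice were examined for a mouse far from the other 3, by the gap to the nearest mouse as a part of the whole range, against Dixon's critical value. This gave 2 results, both for BLM 4. For Des the gap was 0.933 of the range, with BLM 4 at 7.55 on the log2 CPM scale and the other 3 mice at 7.96 to 7.99. For Myl9 it was 0.900, with BLM 4 at 6.62 and the others at 6.94 to 6.97. Chance gives about 1 such result in 20 groups.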

How the results depend on the processing

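Acta2 met the call rule in all 15 alternative fits, and the count of members called was 1 in 13 of the 18 alternatives. It was 3 with the replicate block, 0 at a fold change above 2, 0 at an adjusted P below 0.05, and 1 to 3 when a mouse was left out. The replicate numbers did not pair the mice (correlations of same-numbered mice -0.008, -0.066 and 0.161); in that block BLM 4 has no partner, and the calls were Acta2, Tpm2 and Actg2, as without BLM 4. All genes called numbered 1940 with no filter on low counts and 659 to 1914 when a mouse was left out. Called genes on the other lists numbered 57, and 26 to 78 when a mouse was left out, with 26 without BLM+HBO 1 and 35 without BLM 1. Members that separated between the groups numbered 0 to 4 in the same comparisons. The difference of Acta2 and Tagln from Myh11, Cnn1 and Des was -0.58, with -0.73 to -0.49 when a mouse was left out, and -0.87 for Acta2 against Myh11 alone. Fitted values close to 0 took the other sign for Myh11 (-0.0012 with the replicate block, and -0.018 without BLM 4 to 0.22 without BLM 2), Lmod1 (-0.054 in both settings, up to 0.097) and Synpo2 (0.0069 without BLM 1, down to -0.14). The cause of these changes was not tested. With 4 and 3 mice, the 95% confidence intervals of the members were 0.59 to 1.19 wide on the log2 scale.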
